A study of Mus musculus with 16 samples.

Results

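The NR4A orphan nuclear receptor genes Nr4a1, Nr4a2 and Nr4a3 were taken by name, as the complete family, and are 3 of the 35328 genes in the deposited count table. RNA-Seq had been performed on the dorsal hippocampus of 16 male C57Bl6/J mice, with 4 mice in each of 4 groups. Home cage mice drank either plain water or water with 0.3 g/L caffeine for 2 weeks, a treatment that began at 8 to 9 weeks of age. Learning mice drank the same water or caffeine. After 2 days of habituation to the pool they were trained for 3 days in the Morris water maze (MWM) and were killed 1 hour after training. The maze is a spatial memory task in which mice learn the place of a hidden platform. The home cage mice were resting mice, so learning cannot be told apart here from swimming and the rest of the maze procedure. No genotype or transgene distinguished the groups, all mice were killed by cervical dislocation, and each library is named here by its group and by the mouse number in its label. The design asks how training changes these genes in each treatment, how caffeine changes them in each condition, and whether the response to training differs with caffeine.

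NR4A receptors are called orphan receptors because no physiological ligand is established for them: their binding pocket is filled by bulky side chains, and their activity is thought to depend largely on how much of the protein is made. Neuronal firing switches the genes on within minutes as immediate early genes, mainly through cAMP and calcium signals that reach the transcription factor CREB at cAMP response elements (CREs) in their promoters. The proteins bind the NBRE sequence as monomers, pair with each other or, for Nr4a1 and Nr4a2, with retinoid X receptors, and in the hippocampus they are known for a part in the consolidation of long-term memory. Nr4a1 (Nur77) is also known from T cell selection and Nr4a2 (Nurr1) is required for midbrain dopamine neurons, whereas Nr4a3 (Nor1) is known from muscle metabolism and blood cell growth.

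In the mm10 genome (GENCODE M21 annotation) Nr4a1 (ENSMUSG00000023034) lies on the plus strand of chromosome 15 from 101254269 to 101274795. Nr4a2 (ENSMUSG00000026826) lies on the minus strand of chromosome 2 from 57106830 to 57124003, and Nr4a3 (ENSMUSG00000028341) on the plus strand of chromosome 4 from 48045153 to 48086447. None of the 3 overlaps another annotated gene. The exons span 3.51 kb for Nr4a1, 4.06 kb for Nr4a2 and 5.99 kb for Nr4a3. The 3 promoters are printed because they hold the element through which neuronal activity is known to act on these genes. Each is a stretch before the RefSeq transcription start (build GRCm38.p6), 5′ to 3′ on the strand of the gene, with each CRE core, the conserved part of the CRE, in capitals, TGACG on the strand shown or CGTCA where the site is read on the other strand. For Nr4a1 and Nr4a2 it ends at the RefSeq start, and for Nr4a3 it ends where the first annotated exon of any transcript begins. GENCODE gives 3 transcript starts for Nr4a1, 4 for Nr4a2 and 4 for Nr4a3, and only the window at the RefSeq start was searched. The printed Nr4a1 stretch lies inside the annotated gene, downstream of its first start.
Nr4a1, chr15:101266596-101266845, plus strand: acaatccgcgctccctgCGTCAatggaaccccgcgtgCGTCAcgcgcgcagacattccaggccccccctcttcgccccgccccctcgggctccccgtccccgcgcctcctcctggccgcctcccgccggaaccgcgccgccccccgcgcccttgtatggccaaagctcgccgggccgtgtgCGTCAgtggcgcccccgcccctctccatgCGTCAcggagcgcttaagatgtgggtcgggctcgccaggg
Nr4a2, chr2:57124004-57124253, minus strand: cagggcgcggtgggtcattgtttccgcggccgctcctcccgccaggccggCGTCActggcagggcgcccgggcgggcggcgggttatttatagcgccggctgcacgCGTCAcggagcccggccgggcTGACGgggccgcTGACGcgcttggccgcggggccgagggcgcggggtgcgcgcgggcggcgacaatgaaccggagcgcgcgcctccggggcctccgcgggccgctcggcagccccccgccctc
Nr4a3, chr4:48045055-48045152, plus strand: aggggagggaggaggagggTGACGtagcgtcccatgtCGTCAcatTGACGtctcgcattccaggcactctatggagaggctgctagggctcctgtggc

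Counted over the RefSeq window of 300 bases, 250 before and 50 after the start, each of the 3 promoters held exactly 4 CRE cores, of which 3 lie in the printed Nr4a3 stretch. Among all 32851 promoters of that length, 20.81% held at least 1 CRE core and 76, or 0.23%, held at least 4. These include promoters of genes not expressed here. Of the 12573 tested genes with a promoter, 63 held at least 4 in the promoter with most. The cut of 4 is the members' own count. The full palindromic CRE, TGACGTCA, was matched in none of the 3 windows and in 1.79% of all promoters. An EGR site, GCGNGGGCG, the element of the EGR1 family of activity-induced factors, was matched once each in Nr4a1 and Nr4a2, and in 5.55% of all promoters. The letters of a TATA box, TATAAA, were matched in Nr4a2 and in 13.62% of all promoters. The Nr4a2 match is on the strand opposite to the gene, at -164 to -159 from the RefSeq start. The NBRE, AAAGGTCA, to which the receptors themselves bind, the AP-1 site, TGANTCA, and the CArG box of serum response factor were matched in none of the 3 windows, and in 1.51%, 7.81% and 1.63% of all promoters. Both strands were searched. A full CRE, being a palindrome, was counted as 1 CRE core on each strand as well as under its own name. The background numbers of CRE cores are therefore not always numbers of separate sites. A match describes letters in a window and not binding.

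**Figure D1:**
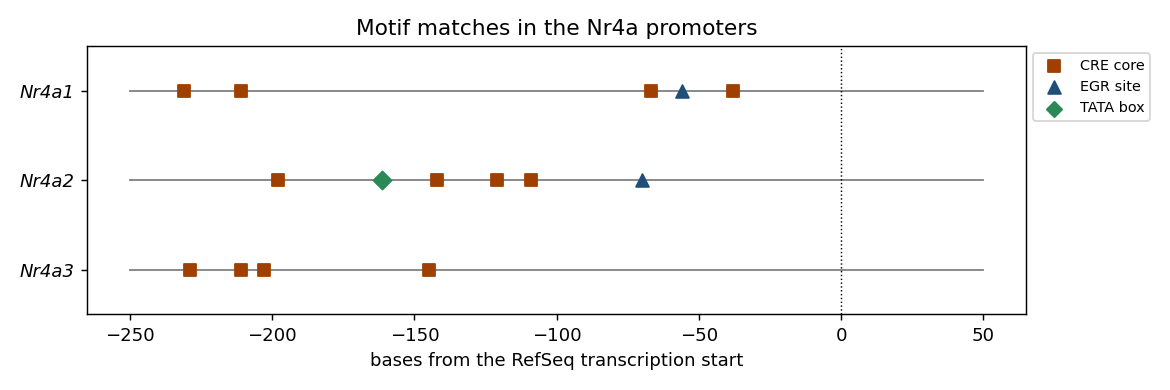
Motif matches in the RefSeq promoter windows of Nr4a1, Nr4a2 and Nr4a3, by distance in bases from the transcription start (dotted line). Squares are CRE cores, triangles EGR sites and the diamond a TATA box match on the opposite strand. Each gene has 4 squares, and those of Nr4a3 all lie in the upstream part of its window.

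Library totals ran from 23078094 to 49949281 reads in genes, and each of the 3 members had at least 933 reads in every library. Markers of dentate granule cells and CA pyramidal cells, the principal neurons of the hippocampus, were present in every library, at summed levels of 314.6 to 575.7 and 658.0 to 910.8 CPM (normalized read counts, each library scaled to the same depth). Choroid plexus markers, which mark tissue that lies against the hippocampus, varied most. None of the 8 was below 1 CPM throughout. Their summed level ranged from 307.6 to 2342 CPM in home cage water and 193.8 to 503.1 in home cage caffeine. It was 165.0 to 435.0 CPM in learning water and 118.1 to 205.4 in learning caffeine. With learning averaged over both treatments, 7 of 8 were called lower, beside 6.71% of all genes tested. Of the other lists, 1 of 5 astrocyte markers (Gfap), 2 of 5 microglia markers (C1qa and Cx3cr1) and 1 of 5 endothelial markers (Cldn5) were called lower. So were 1 of 4 thalamus markers (Plekhg1) and 1 of 6 CA pyramidal cell markers (Wfs1). These called markers changed by -0.19 to -0.34 on the log2 scale, and no marker of these lists was called higher. The medians of these whole lists were -0.04, -0.08, -0.13, -0.22 and -0.03 in the same order. None of the 5 oligodendrocyte markers was called, but their summed level was 11140 CPM in learning water 24, against 4620 to 8315 CPM in the other libraries. The part of these markers in the results on learning was not tested. Home cage caffeine 17 and home cage water 6 had the highest shares of reads on mitochondrial genes, 4.495% and 3.889%, against 3.232% to 3.843% in the other libraries, and they are the libraries in which Nr4a3 stood lowest. In water the share was lower after training, at 3.551% to 3.889% in the home cage and 3.294% to 3.443% after learning, without overlap. In caffeine the groups overlapped, with a share of 3.462% to 4.495% (median 3.624%) in the home cage and 3.232% to 3.595% (median 3.397%) after learning. Its part in the results on learning was not tested. Since these are bulk samples, more cells that express a gene and more RNA per cell cannot be told apart.

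All 3 members were higher in trained than in home cage mice. Averaged over both treatments, the fitted change was 1.62-fold for Nr4a1, 1.41-fold for Nr4a2 and 1.39-fold for Nr4a3. On the log2 scale this is an increase of 0.69 ± 0.11 (SE), 0.50 ± 0.09 and 0.47 ± 0.09, with 8 mice a side. The adjusted p-values were 0.00182, 0.00282 and 0.00351 by the quasi-likelihood test of edgeR with Benjamini-Hochberg adjustment over all 17830 genes tested, where a gene is called at an adjusted p under 0.1. In this comparison 7.81% of all genes tested were called higher. Each member stayed called when any of the 16 libraries was left out.

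Nr4a1, the member with the largest increase in water-treated mice, measured 49.1 (mouse 6), 35.6 (mouse 8), 43.7 (mouse 11) and 39.5 CPM (mouse 20) in home cage water. In learning water it measured 53.8 (mouse 24), 77.8 (mouse 33), 95.8 (mouse 36) and 66.1 CPM (mouse 38). The groups did not overlap, and the trained mice spread more widely than the home cage mice, with mouse 24, the library with the highest oligodendrocyte markers, the lowest of them. The means were 42.0 ± 5.82 and 73.4 ± 17.9 CPM (SD, n = 4 each), and the exact two-sided permutation test gave p = 0.0286, the smallest that 4 against 4 allows, or 0.0686 adjusted over the 12 such tests. In edgeR the increase was 0.81 ± 0.16 on the log2 scale (adjusted p = 0.0396), where 0.639% of all genes tested were called higher. The call was lost without home cage water 11 or 20 or learning water 33 or 36, with an increase of 0.65 on the log2 scale and an adjusted p of 0.147 in edgeR without learning water 36. Without learning water 24 the increase was 0.94 (edgeR adjusted p = 0.00751).

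In caffeine-treated mice Nr4a1 measured 62.7 (mouse 2), 40.2 (mouse 9), 42.9 (mouse 14) and 62.5 CPM (mouse 17) in the home cage. After learning it measured 72.1 (mouse 22), 78.7 (mouse 27), 81.4 (mouse 30) and 79.4 CPM (mouse 40). The home cage mice fell into a higher and a lower pair while the trained mice lay close together, and the groups did not overlap. The means were 52.1 ± 12.2 and 77.9 ± 4.01 CPM (SD, n = 4 each, exact permutation p = 0.0286, adjusted 0.0686). The increase was 0.58 ± 0.16 on the log2 scale (edgeR adjusted p = 0.0646), where 3.16% of all genes tested were called higher. The call was lost without home cage caffeine 9 or 14 or learning caffeine 30 or 40, down to an increase of 0.48 without home cage caffeine 9 and up to an edgeR adjusted p of 0.149 without learning caffeine 30.

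Nr4a2 had the lowest level of the 3 per length of exon. In water-treated mice it measured 50.0 (mouse 6), 36.6 (mouse 8), 35.9 (mouse 11) and 33.7 CPM (mouse 20) in the home cage. After learning it measured 42.3 (mouse 24), 58.3 (mouse 33), 58.3 (mouse 36) and 45.5 CPM (mouse 38). These groups overlapped, because home cage water 6 lay above the lower pair of trained mice, mice 24 and 38. The means were 39.1 ± 7.38 and 51.1 ± 8.41 CPM (SD, n = 4 each, exact permutation p = 0.0857, adjusted 0.147), and the log2 difference of 0.39 ± 0.13 was not called (edgeR adjusted p = 0.202, 95% interval 0.14 to 0.64). Without home cage water 6 it was 0.54 on the log2 scale and was called (edgeR adjusted p = 0.0457), and without learning water 24 it was 0.48 and was not called (edgeR adjusted p = 0.114).

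In caffeine-treated mice Nr4a2 measured 38.5 (mouse 2), 46.0 (mouse 9), 41.4 (mouse 14) and 41.1 CPM (mouse 17) in the home cage. After learning it measured 61.2 (mouse 22), 55.5 (mouse 27), 73.9 (mouse 30) and 62.3 CPM (mouse 40). Every trained mouse was above every home cage mouse, with means of 63.2 ± 7.70 and 41.8 ± 3.12 CPM (SD, n = 4 each, exact permutation p = 0.0286, adjusted 0.0686). Nr4a2 rose by 0.60 ± 0.12 on the log2 scale (edgeR adjusted p = 0.018) and remained called in all 16 fits with a library left out.

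Nr4a3 had the highest level of the 3, in CPM and per length of exon. In water-treated mice it measured 84.2 (mouse 6), 122.0 (mouse 8), 108.2 (mouse 11) and 118.6 CPM (mouse 20) in the home cage. After learning it measured 168.2 (mouse 24), 151.4 (mouse 33), 151.8 (mouse 36) and 139.3 CPM (mouse 38). The groups did not overlap, and mouse 6 lay well below the other home cage mice. The means were 108.2 ± 17.1 and 152.7 ± 11.9 CPM (SD, n = 4 each, exact permutation p = 0.0286, adjusted 0.0686). The increase of 0.50 ± 0.12 on the log2 scale was called (edgeR adjusted p = 0.0923), but stayed called in 5 of the 16 fits with a library left out, in which the increase ran from 0.41 without home cage water 6 to 0.57 without home cage water 8. It was lost without each of home cage water 6, 11 and 20, home cage caffeine 9 and 14, learning water 24, 33, 36 and 38, and learning caffeine 30 and 40, with an edgeR adjusted p of 0.103 to 0.218.

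In caffeine-treated mice Nr4a3 measured 138.9 (mouse 2), 121.2 (mouse 9), 115.3 (mouse 14) and 86.1 CPM (mouse 17) in the home cage. After learning it measured 167.9 (mouse 22), 142.4 (mouse 27), 167.2 (mouse 30) and 152.7 CPM (mouse 40). The lowest trained mouse lay just above the highest home cage mouse, so the groups did not overlap, and their means were 115.4 ± 21.96 and 157.6 ± 12.3 CPM (SD, n = 4 each, exact permutation p = 0.0286, adjusted 0.0686). Nr4a3 rose by 0.45 ± 0.12 on the log2 scale (edgeR adjusted p = 0.0614). The call was lost without home cage caffeine 17 or learning caffeine 22, 30 or 40, and without home cage caffeine 17 the increase was 0.34 on the log2 scale.

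Across all genes tested, 3.87% did not overlap and were higher after learning in water-treated mice and 5.64% in caffeine-treated mice, beside 2 of the 3 members in water and 3 of 3 in caffeine. A fit without both home cage water 6 and home cage caffeine 17 was also made. In water the increases were then 0.89 for Nr4a1, 0.53 for Nr4a2 and 0.40 for Nr4a3 on the log2 scale (edgeR adjusted p = 0.0185, 0.0477 and 0.0271). In caffeine they were 0.68, 0.60 and 0.34 (edgeR adjusted p = 0.0528, 0.0176 and 0.046). The SE of the Nr4a3 change in water went from 0.12 to 0.08 in that fit, although the change itself was smaller. This fit was chosen after the values were seen, and the libraries left out stood out in the members' own values. Its adjusted p-values are therefore a description only, and the share of all genes called higher in it is not given here.

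**Figure D2:**
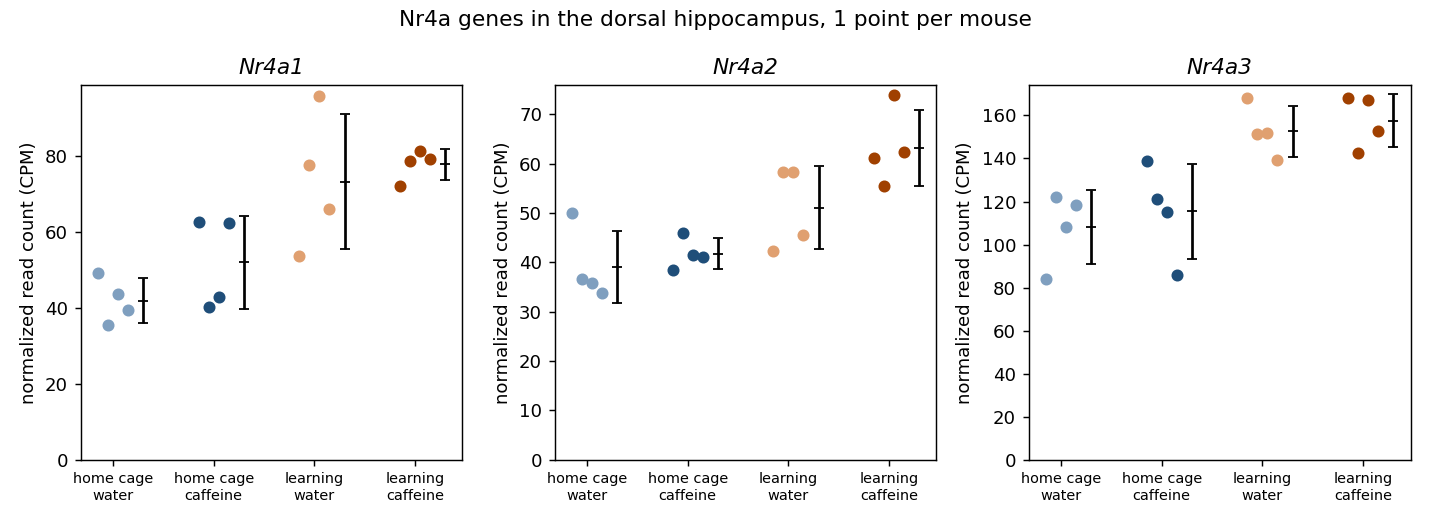
Normalized read counts of Nr4a1, Nr4a2 and Nr4a3 (CPM, axes from 0) in each of the 4 groups, with 1 point per mouse and the group mean ± SD in black beside the points (n = 4). The trained groups lie above the home cage groups of the same treatment except for Nr4a2 in water, where home cage water 6 at 50.0 CPM is within the trained range of 42.3 to 58.3 CPM.

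Per length of exon, the order of the mean levels was Nr4a3, Nr4a1, Nr4a2 in all 4 groups. Nr4a3 measured 18.1 ± 2.85 CPM per kb in home cage water, 19.3 ± 3.67 in home cage caffeine, 25.5 ± 1.98 in learning water and 26.3 ± 2.05 in learning caffeine. Nr4a1 measured 12.0 ± 1.66, 14.8 ± 3.49, 20.9 ± 5.10 and 22.2 ± 1.14 CPM per kb in the same order of groups, and Nr4a2 measured 9.62 ± 1.82, 10.3 ± 0.768, 12.6 ± 2.07 and 15.6 ± 1.90 (SD, n = 4 each). As neighbours in this order, Nr4a3 and Nr4a1 overlapped in home cage caffeine and learning water, and Nr4a1 and Nr4a2 overlapped in home cage water. Against 17802 genes with a length, the home cage level per kb of Nr4a1 was above 79.8% of genes, that of Nr4a2 above 73.5% and that of Nr4a3 above 85.5%. In trained mice these shares were 87.5%, 80.5% and 89.9%.

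The balance between the members was compared within each mouse. The log2 ratio of Nr4a2 to Nr4a1 (CPM) was -0.11 ± 0.17 in home cage water and -0.51 ± 0.16 in learning water (SD, n = 4 each), without overlap, whereas it was -0.29 ± 0.43 in home cage caffeine and -0.31 ± 0.16 in learning caffeine. The difference of -0.39 in water gave an exact permutation p of 0.0286, but none of the 9 ratio comparisons passed after adjustment (0.257 for this one). The ratio of Nr4a3 to Nr4a1 differed by -0.28 in water and -0.14 in caffeine and that of Nr4a3 to Nr4a2 by 0.12 and -0.13, all with overlapping groups. Unequal change of the members with training was not shown at this number of mice.

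No member was called for caffeine against water in either condition. In the home cage, Nr4a1 was 0.32 ± 0.16 higher on the log2 scale with caffeine (edgeR unadjusted p = 0.0671, adjusted p = 0.997, approximate 95% interval -0.0013 to 0.64). The groups overlapped (exact permutation p = 0.257, n = 4 each). The corresponding differences were 0.10 ± 0.13 for Nr4a2 (95% interval -0.15 to 0.35) and 0.09 ± 0.12 for Nr4a3 (95% interval -0.15 to 0.33). After learning, Nr4a2 was 0.31 ± 0.12 higher with caffeine on the log2 scale (edgeR unadjusted p = 0.0228, adjusted p = 0.999, 95% interval 0.07 to 0.55). The groups overlapped, at 42.3 to 58.3 CPM in learning water and 55.5 to 73.9 CPM in learning caffeine (exact permutation p = 0.0857, n = 4 each). The differences for Nr4a1 and Nr4a3 after learning were 0.09 ± 0.16 (95% interval -0.22 to 0.40) and 0.05 ± 0.12 (95% interval -0.19 to 0.28). In edgeR, 0 genes of 17830 were called in either comparison, a background of 0%, while 636 in the home cage and 700 after learning had an unadjusted p under 0.05 and DESeq2 called 19 and 6. None of the members separated the caffeine from the water mice without overlap, which 0.981% of all genes did with higher values in caffeine in the home cage and 1.25% after learning. Averaged over both conditions, the caffeine differences were 0.20 ± 0.11 for Nr4a1, 0.20 ± 0.09 for Nr4a2 and 0.07 ± 0.09 for Nr4a3. None was called (edgeR unadjusted p = 0.0924, 0.0341 and 0.443, adjusted p = 0.985 for each).

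The response to training was not shown to differ between caffeine- and water-treated mice for any member. The caffeine response minus the water response was -0.23 ± 0.23 on the log2 scale for Nr4a1 (95% interval -0.68 to 0.21), 0.21 ± 0.18 for Nr4a2 (95% interval -0.14 to 0.56) and -0.05 ± 0.17 for Nr4a3 (95% interval -0.39 to 0.29), each with an edgeR adjusted p of 1. The intervals leave room for sizeable differences in either direction. With 1 library left out the value ran from -0.36 without learning water 24 to -0.07 without learning water 36 for Nr4a1, from 0.07 without home cage water 6 to 0.28 without learning water 33 for Nr4a2, and from -0.16 without home cage caffeine 17 to 0.06 without home cage caffeine 2 for Nr4a3. Exact permutation of treatment within condition gave p = 0.545, 0.382 and 0.840 (8 mice a side, 4900 assignments). In edgeR 0 genes were called for this difference and 648 had an unadjusted p under 0.05, and DESeq2 called 6. Thus the call of Nr4a2 with training in caffeine and its absence in water do not amount to a difference between the treatments.

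**Figure D3:**
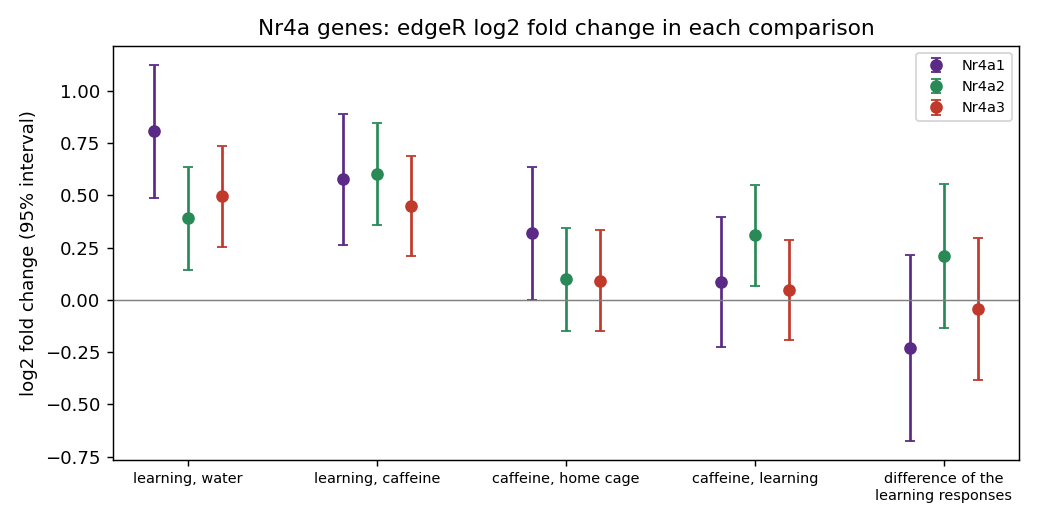
Log2 fold changes of Nr4a1, Nr4a2 and Nr4a3 from the edgeR fit of all 16 libraries, with approximate 95% intervals. The comparisons are learning against home cage in each treatment, caffeine against water in each condition, and the caffeine minus the water response to learning. All 6 learning values lie between 0.39 and 0.81 with intervals above 0, and the 3 differences between the responses have intervals that span 0.

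Among the genes that are known to switch on the Nr4a genes, a minority changed, all by less than the Nr4a genes themselves. Of the 12 activators of Nr4a transcription on the list, 3 rose and 0 fell with learning averaged over both treatments, with a median log2 fold change of 0.07 against -0.01 for all genes tested, of which 7.81% were called higher. They were Ep300, a histone acetyltransferase and CREB coactivator (0.28 ± 0.06, edgeR adjusted p = 0.0069), Creb1, the CRE-binding factor itself (0.23 ± 0.06, edgeR adjusted p = 0.0334), and Srf, serum response factor (0.17 ± 0.05, edgeR adjusted p = 0.0368). The others, among them Crebbp at 0.10, Crtc1 at 0.09 and Mef2d at 0.02 on the log2 scale, were not called.

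Dimer partners and corepressors of the Nr4a proteins showed small changes in both directions with learning averaged over both treatments. Rxra, a retinoid X receptor, rose by 0.14 ± 0.05 on the log2 scale (edgeR adjusted p = 0.0901). Rcor2, of the CoREST corepressor family, fell by 0.19 ± 0.06 (edgeR adjusted p = 0.0651). Rcor1, the CoREST protein that Nr4a2 is known to recruit in glia, differed by 0.17 and was not called. The median log2 fold change of the list of 11 was 0.02.

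Most of the rapid activity-induced genes, which share with the Nr4a genes their induction by neuronal firing, were called. Of 18, 16 rose and 0 fell with learning averaged over both treatments, beside 7.81% of all genes called higher, with a median log2 fold change of 0.52, so that Nr4a1 at 0.69 lay above this median and Nr4a2 at 0.50 and Nr4a3 at 0.47 just below it. The largest changes of the list were those of Egr2, a zinc finger factor (3.45 ± 0.19, edgeR adjusted p = 1.7e-08), and Fos, an AP-1 subunit (1.98 ± 0.14, edgeR adjusted p = 2.01e-07). Egr2 was barely expressed in the home cage, so the size of its change rests on low counts. Its mean was 0.444 CPM in home cage water (3 to 21 reads a library) and 0.715 CPM in home cage caffeine (19 to 32 reads). Egr1, another zinc finger factor, rose by 1.16 ± 0.07 and Fosb, an AP-1 subunit, by 1.11 ± 0.08 on the log2 scale. Bdnf, a neurotrophin, at 0.12 and Btg2, an antiproliferative gene, at 0.10 were not called. In water 11 of the 18 were called higher, beside 0.639% of all genes, and in caffeine 10 of the 18, beside 3.16%, and all 18 values were positive in each. For caffeine against water in the home cage, 16 values were positive and 2 negative (median 0.15, all genes -0.0031). After learning 10 were positive and 8 negative (median 0.04). For the difference between the responses, 3 were positive and 15 negative (median -0.16, all genes 0.0024). None was called in these comparisons, which share libraries, and the counts were given no test.

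Endoplasmic reticulum chaperone genes, which help secreted and membrane proteins fold and have been linked to NR4A activity in hippocampal memory, rose in part. Of 12, 7 rose and 0 fell with learning averaged over both treatments, with a median log2 fold change of 0.22, where 7.81% of all genes tested were called higher. Xbp1, the transcription factor of the unfolded protein response, rose by 0.32 ± 0.07 (edgeR adjusted p = 0.0067) and Hspa5, the chaperone BiP, by 0.46 ± 0.10 (edgeR adjusted p = 0.00936). Pdia4 and Pdia6, which are disulfide isomerases, rose by 0.33 ± 0.09 and 0.22 ± 0.07, and the other 3 called were Creld2, Sdf2l1 and Manf. Of the list, 0 were called in water, beside 0.639% of all genes called higher, and 2 in caffeine (Xbp1 and Hspa5), beside 3.16%, but the difference between the responses was called for none.

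None of the dopamine neuron genes that Nr4a2 is known to drive in the midbrain was called higher, and several were barely expressed in this tissue. Of 7, 6 were tested and 2 were called lower with learning averaged over both treatments, beside 6.71% of all genes tested. Aldh1a1, a retinaldehyde dehydrogenase, fell by 0.16 ± 0.05 on the log2 scale (edgeR adjusted p = 0.0405). Its change was -0.01 ± 0.07 in water and -0.32 ± 0.07 in caffeine (edgeR adjusted p = 0.959 and 0.0194), where 2.13% of all genes were called lower, and the difference between the responses was not called (edgeR adjusted p = 1). Th, tyrosine hydroxylase, fell by 0.64 ± 0.20 (edgeR adjusted p = 0.0623), with -1.65 ± 0.28 in water and 0.38 ± 0.29 in caffeine, and it was called lower in water beside 0.331% of all genes. Th was barely expressed, at 1.12 ± 0.329 CPM in home cage water, 0.449 ± 0.151 in home cage caffeine, 0.356 ± 0.104 in learning water and 0.593 ± 0.0991 in learning caffeine (SD, n = 4 each, 6 to 47 reads a library), and the difference between its responses was not called (edgeR adjusted p = 0.446). Slc6a3 and Pitx3 of the list were lower still, with at most 17 and 3 reads in any library.

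Of 46 other nuclear receptors, 34 were tested, and 2 rose and 1 fell with learning averaged over both treatments, with a median log2 fold change of -0.02. With 7.81% of all genes tested called higher and 6.71% lower, these counts are near or below the background. They were Nr1d2, a clock repressor (0.27 ± 0.07, edgeR adjusted p = 0.0268), Rxra as above, and Esrrb, an estrogen-related receptor, which fell by 0.30 ± 0.10 (edgeR adjusted p = 0.0779). None was called in water or in caffeine alone, and the highest log2 fold change among the 34 was the 0.27 of Nr1d2. No gene of these 6 lists was called in edgeR for caffeine in either condition or for the difference between the responses.

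**Figure D4:**
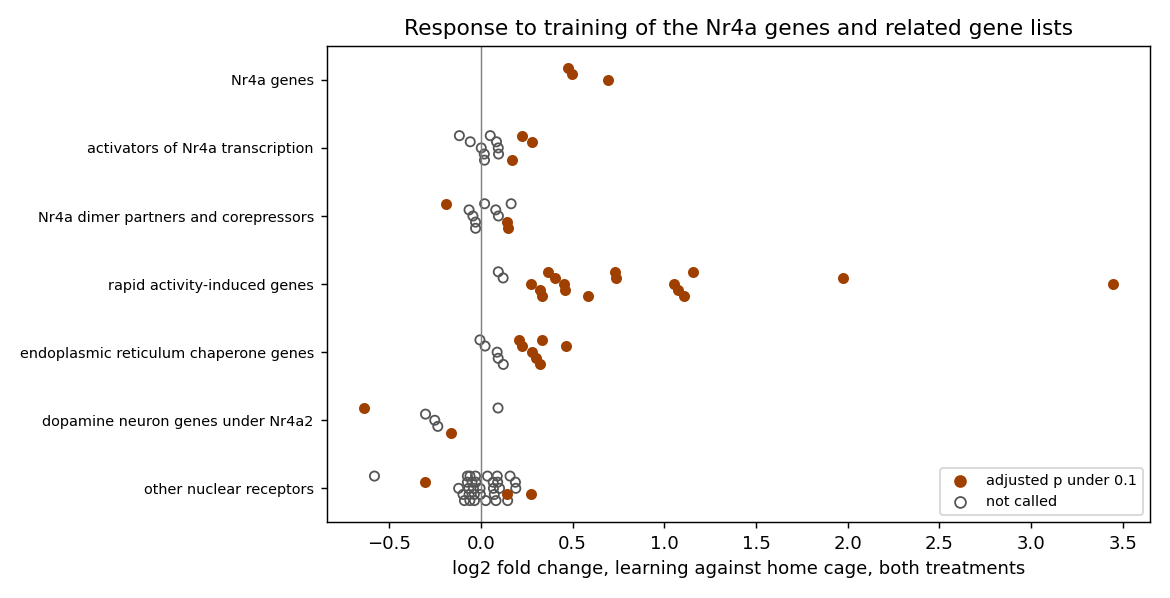
Log2 fold changes with learning, averaged over water and caffeine, for the Nr4a genes and 6 related lists (1 point per gene, filled at an edgeR adjusted p under 0.1, vertical position within a row without meaning). The Nr4a genes lie at 0.47 to 0.69, among the rapid activity-induced genes and to the right of every other nuclear receptor.

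Over the 16 libraries, the gene most like Nr4a1 among 13379 compared was Junb, a partner of Fos (Pearson r = 0.947 of log2 CPM). It was followed by Gpr3, a receptor that raises cAMP without ligand (0.926), Arc, a regulator of synaptic receptors (0.920), Per1, a clock gene with CREs (0.914), and Rasl11b, a small GTPase (0.902). Junb measured 31.7 ± 3.02 CPM in home cage water, 34.1 ± 4.67 in home cage caffeine, 53.5 ± 9.75 in learning water and 56.3 ± 4.35 in learning caffeine (SD, n = 4 each). For Nr4a2 the closest were Castor2, an arginine sensor family gene (0.906), Fosb (0.894), Mrtfa, a coactivator of serum response factor (0.891), Wipf2, an actin regulator (0.891), and Ksr1, a scaffold of the ERK pathway (0.890). For Nr4a3 they were Bsn, which encodes the presynaptic scaffold Bassoon (0.934), Fmnl1, a formin (0.931), Prdm8 (0.931), Traf3 (0.930) and Il16 (0.926). These correlations have no p, since the libraries share the training groups and a scale set by depth.

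Nr4a1 and Nr4a2 were alike at r = 0.795, but Nr4a3 correlated with Nr4a1 at 0.551 and with Nr4a2 at 0.537, which placed them at ranks 1965 and 2083 among the genes most like Nr4a3. After each group's mean was subtracted from its 4 mice, the correlations were 0.425 for Nr4a1 with Nr4a2, -0.391 for Nr4a1 with Nr4a3 and -0.325 for Nr4a2 with Nr4a3 (n = 16). Single mice differed in this. In home cage water 6, Nr4a1 and Nr4a2 were the highest of their group and Nr4a3 the lowest, 0.35 below the mean of its group on the log2 scale. In home cage caffeine 17, Nr4a1 was 0.29 above the group mean on the log2 scale, Nr4a2 0.02 below it and Nr4a3 0.40 below it. In home cage caffeine 2, by contrast, Nr4a1 and Nr4a3 were both above their group means, by 0.30 and 0.29. Learning water 24 had Nr4a1 and Nr4a2 lowest in their group, 0.42 and 0.26 below the group means on the log2 scale. Its Nr4a3 was the highest of the group, 0.14 above the mean. That library had the highest oligodendrocyte markers. Its share of mitochondrial reads, 3.443%, ranked 10 of 16 from the highest but was the highest of learning water, where the lowest was 3.294%. Bsn was 0.30 and 0.33 below its group means in home cage water 6 and home cage caffeine 17. As stated above, these 2 libraries also had the highest shares of mitochondrial reads, and the part of that share in the Nr4a3 values was not tested.

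**Figure D5:**
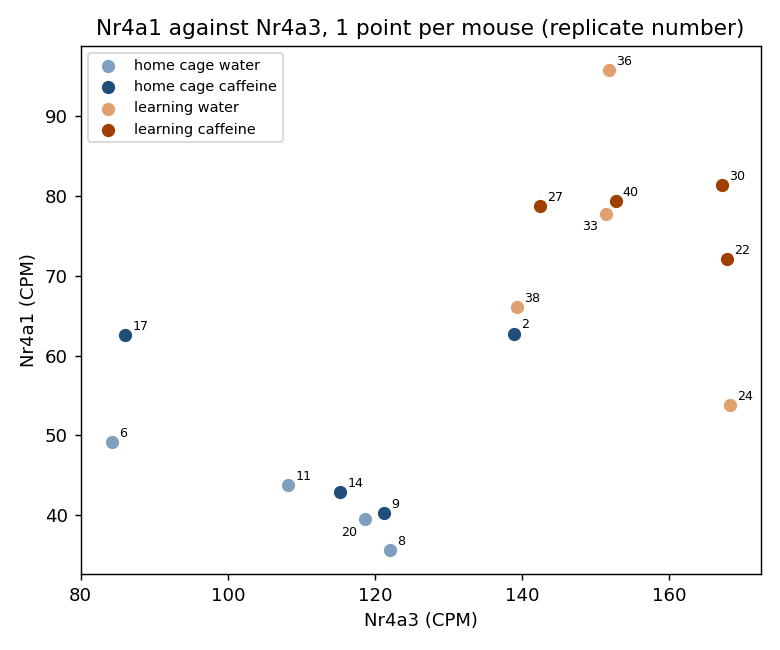
Nr4a1 against Nr4a3 (CPM, axes not from 0) in each of the 16 mice, numbered by mouse and coloured by group. The trained mice lie to the right, at 139.3 CPM of Nr4a3 or more, just beyond home cage mouse 2 at 138.9 CPM. On the Nr4a1 axis trained mouse 24, at 53.8 CPM, lies below home cage mice 2 and 17, at 62.7 and 62.5 CPM. Home cage mice 6 and 17 lie apart at the left with 84.2 and 86.1 CPM of Nr4a3.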

How the data were processed

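The authors prepared stranded mRNA libraries (TruSeq), read single ends of 50 bases, aligned them to mm10 with STAR 2.5.3a and Bowtie 2 2.2.8, and assigned uniquely aligned reads to Ensembl release 90 genes with HTSeq-count 0.6.1p1 in union mode. The deposited values are raw counts per gene, not normalized. The strand setting of the counting was not given in the sources used here. The groups came from the labels, which name 4 mice in each.

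From the counts, all 16 libraries and 4 groups were fitted together with edgeR 4.0.16 in R 4.3.3 (TMM scaling, filterByExpr, quasi-likelihood test), and a gene was called at an adjusted p under 0.1 over the 17830 genes that passed the filter, all 3 members included. SE is the log2 fold change divided by the root of F. CPM used TMM-scaled totals, and levels per kb used exon lengths from GENCODE M21. Single-gene checks were exact two-sided permutation tests. Likeness was the Pearson correlation of log2 CPM (prior count 2) among tested genes whose mean log2 CPM was 1 or more. Promoters came from a RefSeq table (GRCm38.p6) that held all 3 members, with no protein sequence table used. The fit was tested on simulated data. The alternatives were DESeq2 1.42.0, other filters, scalings, thresholds and sample sets, and each library left out.

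The members and lists were chosen with earlier results of these data known. Named were the members, the 5 genes most like each, up to 4 called genes of smallest p per list in the averaged learning response, any list gene called for caffeine or for the difference between responses, and any gene of a list of at most 12. From the rapid activity-induced list, Bdnf and Btg2 were named outside this rule as the 2 that were not called, after their values were seen. A result among the dimer partners and corepressors is not reported here.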

Additional observations from a re-analysis of the deposited data

How the results depend on the processing

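No paired analysis was possible because the groups share no mouse numbers. Of the members' values under alternatives that left out no single library, none reversed, 4 were no longer called and 2 became called. At an adjusted p under 0.05 in edgeR, Nr4a1 in caffeine (0.58, adjusted p = 0.0646) and Nr4a3 in water (0.50, adjusted p = 0.0923) and caffeine (0.45, adjusted p = 0.0614) were not called. In an edgeR fit of only the 8 libraries compared, Nr4a3 in water was 0.50 (adjusted p = 0.105). Nr4a2 in water was called in edgeR without a filter on low counts (0.40, adjusted p = 0.0739) and without both home cage water 6 and home cage caffeine 17 (0.53, adjusted p = 0.0477), the alternative chosen after seeing the data. The cause was not tested.

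With each library left out in turn, the log2 change with learning ranged for Nr4a1 from 0.65 to 0.94 in water and 0.48 to 0.69 in caffeine, for Nr4a2 from 0.32 to 0.54 in water and for Nr4a3 from 0.41 to 0.57 in water and 0.34 to 0.57 in caffeine. Signs turned in values that were never called. Caffeine after learning ranged from -0.0351 to 0.25 for Nr4a1, caffeine in the home cage from -0.0129 to 0.21 for Nr4a3, and the difference between responses from -0.16 to 0.06 for Nr4a3. The log2 ratio change with learning ranged from -0.15 to 0.15 for Nr4a2 to Nr4a1 in caffeine, from -0.37 to 0.0029 for Nr4a3 to Nr4a1 in caffeine, and for Nr4a3 to Nr4a2 from -0.12 to 0.23 in water, -0.25 to 0.0086 in caffeine and -0.12 to 0.0633 over both.

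Genes called for learning were 173 in water, 942 in caffeine and 2590 averaged. They were 428 and 1569 in water and caffeine with DESeq2, 290 in water without a filter, 85 and 617 in fits of 8 libraries, and 70, 449 and 1384 at 0.05. Without home cage water 6 and home cage caffeine 17 they were 582 in caffeine and 1475 averaged, and with each library left out 37 to 312 in water and 382 to 1231 in caffeine. For caffeine, edgeR called 0 in the home cage, 0 after learning, 0 for the difference and 0 averaged, against 19, 6, 6 and 16 with DESeq2 and 34, 8, 9 and 36 without a filter. Leaving out both libraries gave 18 in the home cage and 15 averaged. Robust empirical Bayes gave 1 in the home cage. Of the 5 genes most like each member, 4 for Nr4a1, 3 for Nr4a2 and 0 for Nr4a3 were also among the 5 highest by Spearman correlation.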

Other observations

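Genes sorted by the number of CRE cores (TGACG on either strand) in their RefSeq promoter, without the Nr4a genes, were called higher with learning averaged over both treatments in unequal shares. The share was 7.47% of 8433 genes with 0 CRE cores, 9.67% of 2957 with 1, 10.6% of 913 with 2, 18.8% of 207 with 3 and 13.3% of 60 with at least 4, against 8.43% of all 12570 genes that had a promoter and were tested. The 8 genes called higher with at least 4 CRE cores were Coq10b, Hps4, Ing3, Ube2j1, Heca, Ccnl2, Braf and Galnt11, which were named after their values were seen. Where a gene had several promoters, the highest value was used. A full CRE was counted as a CRE core on each strand, so these numbers are not always numbers of separate sites. Median GC content of the promoters was 60.7% with 0 CRE cores, 62.7% with 1, 63.0% with 2 and with 3, and 65.0% with at least 4, and its part in these shares was not tested. The shares describe these promoters and were given no test.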
